A study of Mus musculus with 9 samples.

Results

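The 10 genes described here are known from dendritic cells and from the movement of mature dendritic cells: *Ccr7*, *Ccl17*, *Ccl22*, *Fscn1*, *Flt3*, *Zbtb46*, *Cd209a*, *Xcr1*, *Clec9a* and *Itgax*. They were taken by name, with earlier results of these data known. Their Ensembl identifiers were found among the 53801 genes of the count data by their mouse symbols, for all 10 of 10 genes. The RNA came from cells sorted as CD11c- Ly6G- CD11b+ CD45high, a gate for monocytes/macrophages that leaves out cells with CD11c protein on their surface. All mice were male C57BL/6J mice, 9 weeks old. Stroke blood and stroke brain came from mice 5 days after dMCAO, a permanent closure of the left distal middle cerebral artery together with the left common carotid artery. Sham blood came from sham-operated mice, for which the sources used here state no day. Each group had 3 libraries. A blood library held the cells of 1 mouse, purified on Ficoll, and a brain library held the cells of the ipsilesional hemispheres of 5 pooled mice, released from the tissue by a dissociation kit and purified on Percoll. Tissue, pooling and the way the cells were isolated change together between brain and blood and cannot be told apart.

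Dendritic cells take up antigen in tissues, mature, and carry the antigen to lymph nodes, where they present it to T cells. Maturing dendritic cells gain CCR7, the receptor that guides them toward lymphatic vessels and nodes, and fascin, which bundles actin filaments, while CCL17 and CCL22 are chemokines that attract T cells carrying CCR4. Dendritic cells arise under the cytokine FLT3 ligand and its receptor FLT3, conventional dendritic cells carry the transcription factor ZBTB46, and their type 1 subset is marked by XCR1 and CLEC9A. None of these genes is fully private to dendritic cells. *Ccr7* is also used by T and B cells, *Cd209a* by a subset of monocytes, and *Itgax*, which encodes CD11c, by activated microglia and macrophages.

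Total counts were between 18475118 and 22623578 per library. Levels are given as CPM, counts per 1000000 counts of the library after TMM scaling, and the limit of detection used here, 3 counts in a library, equals 0.125 to 0.179 CPM. The monocyte and macrophage markers, 8 genes that include *Csf1r*, *Cd68* and *Lyz2*, were present in every group. Their summed level was 91394 to 128084 CPM in sham blood, 104533 to 111665 CPM in stroke blood and 42821 to 49183 CPM in the brain. Most of this sum was *Lyz2*, with means of 97571, 97822 and 38122 CPM in these groups. By the rule given below, 2 of the 8 were lower in the brain than in stroke blood, *Lyz2* (log2 fold change -1.33) and *Ly6c2* (-1.64), and 0 were higher. *Csf1r* (0.26) and *Cd68* (0.56) were not called, and the median of the 8 was -0.52. Markers of other cells also differed between brain and stroke blood. By the rule given below, 13.1% of all genes tested were called higher in the brain and 21% in either direction. All 8 microglia markers were higher in the brain (stroke blood libraries summed to 149 to 205 CPM and brain libraries to 1097 to 3230 CPM), as were 4 of 5 tested markers of border-associated macrophages, 3 of 8 of T and NK cells, 4 of 6 of neutrophils and 1 of 3 of neural cells, while 1 of the neutrophil markers, *Mmp8* (-1.79), 5 of 6 platelet markers and 4 of 4 erythroid markers were lower. The first sham blood library stood apart, with 17.6 CPM of platelet markers against 422 and 634 CPM in the others, and 944 CPM of erythroid markers against 27330 and 25224 CPM. The part of these other cells in the results below was not tested.

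The stretches of DNA around the start of a gene, from 250 bases before to 50 bases after the start given by RefSeq on GRCm38.p6, were found for 9 of the 10 genes (all but *Ccr7*). Shown are *Ccl22* and *Ccl17*, neighbours on chromosome 8 that had almost no counts in blood, and *Zbtb46* and *Itgax*, the only members whose stretch held TGANTCA, the letters of an AP-1 site. Capitals mark matches to the motifs searched.
Ccl22, chr8:94745434-94745733 (+ strand): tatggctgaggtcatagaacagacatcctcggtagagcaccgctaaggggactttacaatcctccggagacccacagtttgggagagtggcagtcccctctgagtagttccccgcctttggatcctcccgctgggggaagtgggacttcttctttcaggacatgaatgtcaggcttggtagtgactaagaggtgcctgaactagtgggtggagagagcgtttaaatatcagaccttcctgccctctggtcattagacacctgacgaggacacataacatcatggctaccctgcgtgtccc
Ccl17, chr8:94810203-94810502 (+ strand): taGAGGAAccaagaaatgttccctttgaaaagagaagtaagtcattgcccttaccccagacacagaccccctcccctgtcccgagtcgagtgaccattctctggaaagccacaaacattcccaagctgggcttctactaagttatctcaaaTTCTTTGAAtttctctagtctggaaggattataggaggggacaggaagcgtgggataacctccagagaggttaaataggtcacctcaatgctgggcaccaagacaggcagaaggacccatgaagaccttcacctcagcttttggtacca
Zbtb46, chr2:181424339-181424638 (- strand): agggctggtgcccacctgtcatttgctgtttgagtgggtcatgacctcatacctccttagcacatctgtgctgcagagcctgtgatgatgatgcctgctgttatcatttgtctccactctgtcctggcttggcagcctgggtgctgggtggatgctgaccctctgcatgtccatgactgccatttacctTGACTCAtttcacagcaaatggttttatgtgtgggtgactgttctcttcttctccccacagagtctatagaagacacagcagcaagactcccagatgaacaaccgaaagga
Itgax, chr7:128129300-128129599 (+ strand): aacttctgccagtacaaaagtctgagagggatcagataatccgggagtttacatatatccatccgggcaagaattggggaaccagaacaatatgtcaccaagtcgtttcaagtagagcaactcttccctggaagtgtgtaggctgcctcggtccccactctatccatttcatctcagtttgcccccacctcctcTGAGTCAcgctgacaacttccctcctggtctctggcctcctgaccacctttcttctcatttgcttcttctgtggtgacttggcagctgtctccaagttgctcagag
All motifs were searched on both strands. TGANTCA, a palindrome that therefore matches both strands at once, lay 61 to 55 bases before the start of *Zbtb46* and 56 to 50 bases before that of *Itgax*, and 7.93% of the 27025 stretches in the RefSeq table held it. TTCNNNGAA, the palindromic letters of a STAT site, lay 99 to 91 bases before the start of *Ccl17* and occurs in 8.47% of all stretches. GAGGAA, letters of a PU.1 site, was found in *Ccl17* and is held by 28.3%. The NF-kappaB consensus (8.18%) and the motif of the interferon response element (3.49%) matched none of the 9. The stretch of *Zbtb46* lies inside the gene as the annotation of the counts draws it, since RefSeq gives another start. These matches describe the letters and say nothing of binding.

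In the brain libraries 9 of the 10 genes were higher than in stroke blood, and *Xcr1* did not pass the test. A gene was called when edgeR's quasi-likelihood test gave a log2 fold change above 1 or below -1 and an adjusted p below 0.05. By this rule 21% of the 13189 genes tested were called, 13.1% as higher in the brain. Since the 10 genes were chosen with earlier results of these data known, the shares over all genes are given as background and make no test. For 9 of the 10 genes every brain library lay above every stroke blood library, which was so for 25% of all genes tested. The median log2 fold change was 3.82 over the 10 genes, also with *Ccl22* at its lower bound, and 0.06 over all genes. Against sham blood 6 of the 10 were called, all higher in the brain, where 13.4% of 13020 genes were called and 9.75% were called higher; the groups did not overlap for 8 of the 10, against 22.2% of all genes that were higher in every brain library. The comparisons share the brain libraries. The 4 genes *Ccl17*, *Ccl22*, *Fscn1* and *Clec9a* had fewer than 10 counts in at least 2 of the stroke blood libraries and reached the test through the brain, so a call for them follows in part from the filter. Of the other 6 genes, 5 were called against stroke blood. The same 4 also had fewer than 10 counts in at least 2 of the sham blood libraries, so the limit holds there too. Of the 6 called against sham blood, *Ccl17*, *Ccl22* and *Fscn1* had 0 counts in sham blood, and the others were *Ccr7*, *Zbtb46* and *Itgax*. In bulk RNA, a gene that rises in each cell and a larger share of cells that carry it cannot be told apart.

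**Figure D1:**
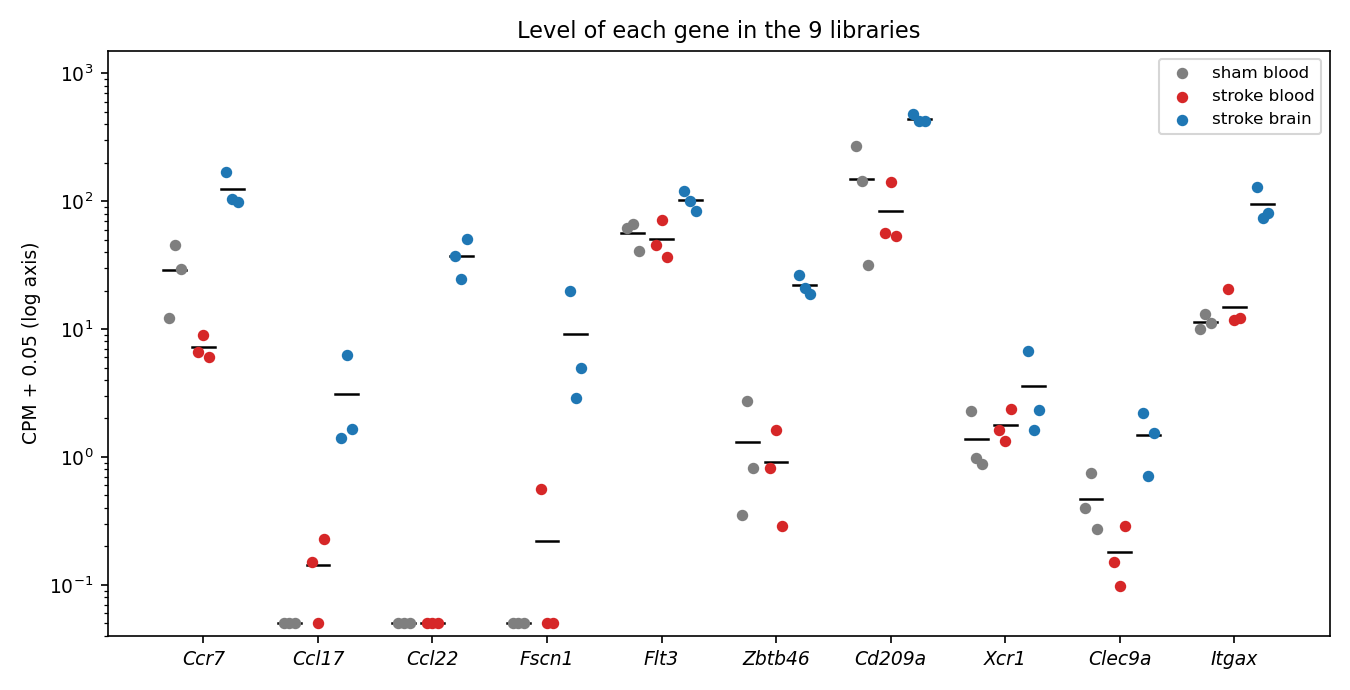
Level of each of the 10 genes in the 9 libraries, as CPM plus 0.05 on a log axis; points are libraries, black lines are means of 3 libraries, and points on the lowest line are libraries with no count. All brain libraries lie above all blood libraries of both kinds for 8 genes, and *Ccl22* was at 0 in the 6 blood libraries.

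*Ccr7* (ENSMUSG00000037944, chr11:99144196-99155077, GRCm38, minus strand), the receptor for the lymph node chemokines CCL19 and CCL21, was the only gene of the 10 whose groups were separate in all 3 comparisons. Sham blood libraries measured 12.1, 45.1 and 29.2 CPM, stroke blood libraries 6.52, 8.91 and 5.98 CPM, and brain libraries 169, 104 and 98.1 CPM. The level was thus highest in the brain and lowest in stroke blood, with sham blood between. Brain against stroke blood gave a log2 fold change of 4.14 (SE 0.29, edgeR adjusted p = 2.68e-05), a 17.7-fold difference. Against sham blood the log2 fold change was 2.10 (SE 0.45, edgeR adjusted p = 0.0172), which was no longer called without the third sham blood library (adjusted p = 0.0629). T and B cells use the same receptor, and B cell markers were not called in either direction in brain against stroke blood (0 of 5 tested) and were lower in the brain than in sham blood for 5 of 6. Of the 8 T and NK cell markers 3 were called higher in the brain than in stroke blood, *Cd3d* (log2 fold change 1.67), *Cd3g* (1.91) and *Trbc2* (1.10), and *Cd3e* (edgeR adjusted p = 0.184) and *Trac* (edgeR adjusted p = 0.0568) were not; the median of the 8 was 1.30. Against sham blood 1 of the 8, *Nkg7*, was called higher, with a median of 0.20. Of all genes tested, 13.1% were called higher in the brain than in stroke blood and 9.75% higher than in sham blood. In either direction the shares were 21% and 13.4%. The part of T, NK and B cells in the *Ccr7* level was not tested.

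*Ccl22* (ENSMUSG00000031779, chr8:94745590-94751699, plus strand), a ligand of CCR4, was not counted once in the 6 blood libraries. The brain libraries gave 761, 595 and 1156 counts, or 37.1, 24.7 and 50.4 CPM. Brain was at least 236-fold higher than stroke blood (edgeR adjusted p = 3.78e-05) and at least 247-fold higher than sham blood (edgeR adjusted p = 0.000509), taking 3 counts in each blood library as the limit. *Ccl17* (ENSMUSG00000031780, chr8:94810453-94812036, plus strand), the other ligand of CCR4, was scarcer and less even. Sham blood had 0 counts, the libraries of stroke blood had 2, 0 and 3, and those of the brain had 28, 151 and 37. The counts summed over the libraries gave a ratio of 36.7 for brain against stroke blood (95% exact interval 15.5 to 114, counting error only), with an edgeR adjusted p of 0.00513, and brain was at least 20.3-fold higher than sham blood (edgeR adjusted p = 0.0111), or 9.82-fold without the second brain library. The second brain library carried most of the *Ccl17* counts; without it the log2 fold change against stroke blood was 4.01 in place of 5.06, and without the second or the third stroke blood library it was 4.41 or 5.79. It was the lowest of the 3 for *Ccl22*, so the ratio of *Ccl22* to *Ccl17* per kb of exon was 6.01, 0.871 and 6.91 in the brain libraries. The transcript of the receptor for both, *Ccr4*, was at or near the limit everywhere, with 0 to 5 counts per library.

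*Ccl22* and *Ccl17* share their stretch of chromosome 8 with another chemokine gene, *Cx3cl1* (chr8:94772009-94782427), which lies between them and encodes fractalkine, a membrane-bound chemokine known from neurons. *Cx3cl1* was likewise at 0 in all 6 blood libraries, and its brain counts were 149, 109 and 114, at least 35.3-fold above stroke blood (edgeR adjusted p = 0.000295). The protein-coding genes on either side were not called. *Ciapin1* had a log2 fold change of 0.03 (SE 0.18), *Polr2c* of 0.11 (SE 0.17), *Arl2bp* of 0.19 (SE 0.21) and *Rspry1* of 0.07 (SE 0.23), and for these 4 the libraries of brain and stroke blood overlapped. *Dok4* had the largest change among them without passing (1.41, SE 0.50, edgeR adjusted p = 0.0572). *Coq9* (-0.68, SE 0.18, edgeR adjusted p = 0.0206) and *Ccdc102a* (0.54, SE 0.18, edgeR adjusted p = 0.0482) had separate groups, with changes below the fold threshold. Thus the 3 chemokine genes were called and the genes within 100 kb around them were not. Of the 6 neural markers 3 had enough counts to test, and 1, the choroid plexus gene *Ttr*, was called higher in the brain, with 0 counts in all blood libraries and a mean of 46.9 CPM in the brain (edgeR adjusted p = 0.000496). The neuron genes *Snap25* and *Syt1* reached at most 8 and 0 counts in a brain library, and the astrocyte gene *Gfap* 24. The summed level of the 6 was 170 to 282 CPM in sham blood, 207 to 330 CPM in stroke blood and 148 to 261 CPM in the brain. Most of each sum was *Mbp*, with 3037 to 6003 counts per library in sham blood, 3430 to 6917 in stroke blood and 2684 to 3578 in the brain. The sums therefore do not show how the scarcer neural markers differed. The part of the neural markers in the chemokine levels was not tested.

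*Fscn1* (ENSMUSG00000029581, chr5:142960343-142973185, plus strand), which encodes fascin, had 0 counts in 5 of the 6 blood libraries and 10 counts in the first stroke blood library. The brain libraries had 405, 68 and 112 counts, or 19.7, 2.82 and 4.88 CPM. Every brain library was above every blood library, with a 7.0-fold range among the brain libraries themselves. The log2 fold change against stroke blood was 5.72 (SE 1.18, edgeR adjusted p = 0.00610), and it was 10.60 without the first stroke blood library, since the others held no count, 5.08 without the second, and 4.47 without the first brain library. Against sham blood the brain was at least 60.4-fold higher (edgeR adjusted p = 0.00980), or 25.4-fold without the first brain library. *Actb*, which lies near *Fscn1* and encodes another part of the actin skeleton, was not called (log2 fold change 0.56, SE 0.27, edgeR adjusted p = 0.150).

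**Figure D2:**
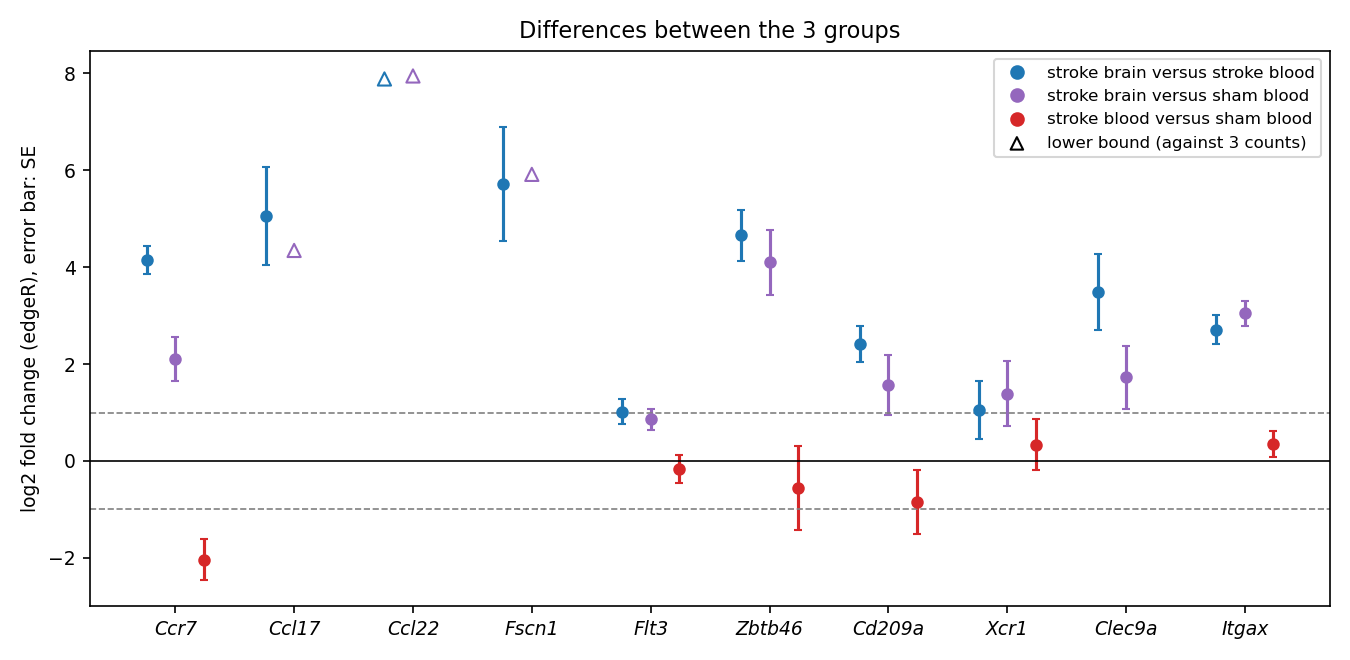
Log2 fold change of each gene in the 3 comparisons with its standard error (circles), or the lower bound against 3 counts where the second group had no count (triangles); dashed lines mark 1 and -1, and genes with too few counts to test in a comparison have no symbol. Brain against either blood group lies above 0 for all 10 genes, while stroke against sham blood lies on both sides of 0, with *Ccr7* lowest at -2.04.

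*Flt3* (ENSMUSG00000042817, chr5:147330741-147400489, minus strand), the receptor for the growth factor of dendritic cells, was already present in blood. The sham libraries measured 61.6, 65.8 and 40.5 CPM, the stroke blood libraries 45.5, 70.7 and 36.7 CPM, and the brain libraries 121, 100.5 and 83.6 CPM. The brain libraries were above both blood groups, by the smallest margin among the called genes. The log2 fold change against stroke blood was 1.02 (SE 0.27, edgeR adjusted p = 0.0178), just past the threshold, and the call was lost without the first stroke blood library (0.92), the third (0.80) or the first brain library (0.88). Against sham blood it was 0.86 (SE 0.23, edgeR adjusted p = 0.0339), below the fold threshold. *Csf1r*, the related receptor that marks monocytes and macrophages, was far more abundant, and *Flt3* per kb of exon was 2.00% ± 0.398 of *Csf1r* in sham blood, 1.78% ± 0.343 in stroke blood and 3.18% ± 1.15 in the brain (SD, n = 3 each). *Flt3l*, which encodes the ligand, had 56 to 135 counts per library.

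*Zbtb46* (ENSMUSG00000027583, chr2:181387762-181459426, minus strand), the transcription factor gene used to mark conventional dendritic cells, was scarce in blood and clearly present in the brain. Its counts were 6, 58 and 14 in sham blood, 15, 33 and 4 in stroke blood, and 537, 504 and 427 in the brain. The brain libraries were close to each other, at 26.2, 20.9 and 18.6 CPM, whereas the blood libraries differed by several fold. The log2 fold change was 4.66 (SE 0.52, edgeR adjusted p = 0.000295) against stroke blood and 4.10 (SE 0.66, edgeR adjusted p = 0.00632) against sham blood. It rose to 5.40 without the second stroke blood library and to 5.34 without the second sham blood library, the highest library of each blood group.

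*Cd209a* (ENSMUSG00000031494, chr8:3743397-3748984, minus strand), a C-type lectin gene of dendritic cells that are derived from monocytes and of a monocyte subset, was the most abundant of the 10 genes in every group. Levels were 269, 143 and 31.6 CPM in sham blood, 56.3, 142 and 53.0 CPM in stroke blood, and 479, 420.3 and 420.2 CPM in the brain. The brain libraries were close to each other and above all blood libraries, while the sham blood libraries differed by several fold. Against stroke blood the log2 fold change was 2.42 (SE 0.37, edgeR adjusted p = 0.00139), and 3.01 without the second stroke blood library. Against sham blood it was 1.57 (SE 0.61) and did not pass the test (edgeR adjusted p = 0.113); without the first sham blood library, the one with few platelet and erythroid counts, it was 2.33 and passed (edgeR adjusted p = 0.0393).

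The related lectin genes of the same family followed in smaller amounts. *Cd209d* had 11 to 53 counts per blood library, and its brain counts were 146, 141 and 118 (log2 fold change against stroke blood 2.60, SE 0.43, edgeR adjusted p = 0.00204). *Cd209c*, *Cd209e* and *Cd209f* were also called higher. *Cd209f* was at 0 in blood, and with 10, 149 and 484 counts in the brain its rise rested on the second and the third library. *Cd209b* was not called (log2 fold change 2.35, SE 0.97, edgeR adjusted p = 0.0969), and *Cd209g* had too few counts to test. Reads shared between such similar genes could have been split or dropped when they were counted, which makes the levels of this family uncertain.

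The markers of type 1 conventional dendritic cells were scarce in all libraries. *Xcr1* (ENSMUSG00000060509, chr9:123852315-123862029, minus strand), the receptor for XCL1, had 45, 20 and 15 counts in sham blood, 31, 27 and 39 in stroke blood, and 137, 38 and 52 in the brain. Only the first brain library stood clear of the blood libraries, and in CPM the groups overlapped. The log2 fold change was 1.06 (SE 0.60, edgeR adjusted p = 0.209) against stroke blood, 0.19 without the first brain library, and 1.39 (SE 0.67, edgeR adjusted p = 0.187) against sham blood. *Xcl1*, which encodes the ligand, had 19 to 155 counts per library. *Cxcr6*, a chemokine receptor gene close to *Xcr1* on chromosome 9 and known from T and NK cells, had 0 to 22 counts per library in stroke blood, against 478, 227 and 297 in the brain (log2 fold change 5.37, SE 1.00, edgeR adjusted p = 0.00384).

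*Clec9a* (ENSMUSG00000046080, chr6:129408862-129424763, plus strand), a receptor for dead cells on type 1 dendritic cells, had 7, 15 and 4 counts in sham blood, 2, 1 and 4 in stroke blood, and 44, 16 and 34 in the brain. The brain libraries were above all stroke blood libraries but overlapped sham blood in CPM. Its log2 fold change was 3.49 (SE 0.79, edgeR adjusted p = 0.00967) against stroke blood, a call lost without the first stroke blood library (adjusted p = 0.0600) and 4.16 without the third, and 1.73 (SE 0.65, edgeR adjusted p = 0.102) against sham blood. Its exons share 184 bases on the same strand with *Clec1b*, a platelet lectin gene whose mean was 20.3 CPM for stroke blood and 0.403 CPM for brain (log2 fold change -5.64, SE 0.54, edgeR adjusted p = 0.000132), so the small *Clec9a* counts are uncertain. At these depths neither gene reached more than 6.68 CPM in a library.

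*Itgax* (ENSMUSG00000030789, chr7:128129547-128150657, plus strand) encodes CD11c, the protein that the sort excluded. Sham blood gave 9.89, 13.0 and 11.2 CPM, stroke blood 20.5, 11.7 and 12.2 CPM, and the brain 129, 74.1 and 80.7 CPM. The transcript was thus present in all 9 libraries of cells gated as CD11c-, and every brain library was more than 3 times the highest blood library. Brain was 6.53-fold above stroke blood (log2 fold change 2.71, SE 0.30, edgeR adjusted p = 0.000284) and 8.30-fold above sham blood (log2 fold change 3.05, SE 0.26, edgeR adjusted p = 0.000541). *Itgam*, the neighbouring gene that encodes CD11b, the protein the sort required, had a log2 fold change of -0.59 (SE 0.14, edgeR adjusted p = 0.0119), below the fold threshold. Per kb of exon *Itgax* was 6.62% ± 1.49 of *Itgam* in sham blood, 7.05% ± 2.36 in stroke blood and 68.9% ± 21.7 in the brain (SD, n = 3 each), with 93.9%, 57.1% and 55.7% in the single brain libraries. Another gene model, *Gm49368*, shares 3450 bases of exon with *Itgam* on the same strand, so counts of *Itgam* may be too low in every library, and the percentages serve to compare libraries and not the amounts of the proteins.

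**Figure D3:**
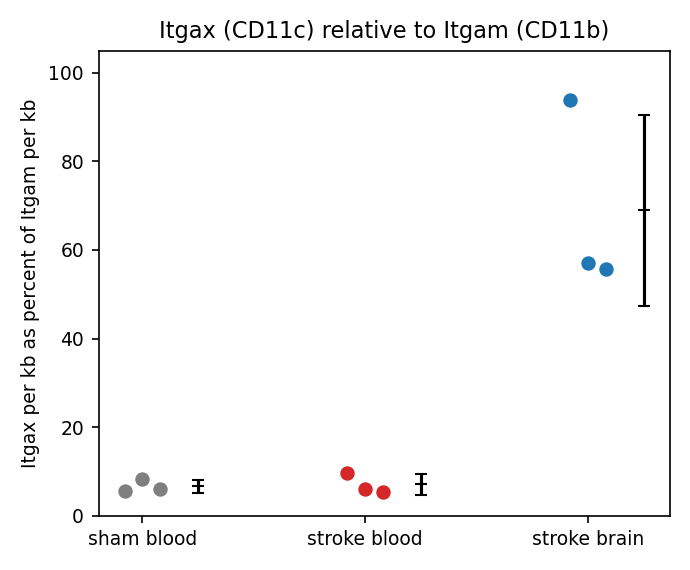
*Itgax* per kb of exon as a percentage of *Itgam* per kb in the 9 libraries; points are libraries, and bars beside them give the mean and SD of 3 libraries. The blood libraries lie below 10% and the brain libraries above 55%.

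Levels of different genes can be compared only per length of exon. In the brain *Cd209a* led with 277.9 ± 21.5 CPM per kb, followed by *Ccr7* with 62.5 ± 19.9, *Itgax* with 19.7 ± 6.22, *Flt3* with 16.4 ± 3.01 and *Ccl22* with 16.1 ± 5.52 CPM per kb (SD, n = 3 each). *Ccl17* (6.00 ± 5.37), *Fscn1* (3.04 ± 3.07) and *Zbtb46* (2.57 ± 0.456) came next, and *Xcr1* (0.788 ± 0.622) and *Clec9a* (0.434 ± 0.225 CPM per kb) last. From *Itgax* down to *Zbtb46* each gene overlapped the next in its libraries, as did *Xcr1* and *Clec9a*, while *Zbtb46* did not overlap *Xcr1*. *Cd209a* ranked at the 98.5 to 98.8 percentile of protein-coding genes with a count in the brain libraries, and *Clec9a* at the 15.3 to 26.8 percentile. In stroke blood the order began with *Cd209a* (52.8 ± 31.7), *Flt3* (8.26 ± 2.86), *Ccr7* (3.61 ± 0.787) and *Itgax* (3.09 ± 1.03 CPM per kb), of which the last pair overlapped. In sham blood *Cd209a* (93.3 ± 75), *Ccr7* (14.6 ± 8.32) and *Flt3* (9.06 ± 2.19 CPM per kb) overlapped in that order.

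The 10 genes differed in how evenly they were spread over the brain libraries. Of the 10, 8 were highest in the first brain library, all but *Ccl17* and *Ccl22*, where 37.3% of all genes tested were highest in that library. The spread was widest for *Fscn1* (7.0-fold from the lowest to the highest library), *Ccl17* (4.59-fold) and *Xcr1* (4.24-fold) and narrowest for *Cd209a* (1.14-fold), *Zbtb46* (1.41-fold) and *Flt3* (1.44-fold). The microglia markers had another order, with all 8 highest in the third brain library and 6 lowest in the first (summed level 1097, 1734 and 3230 CPM). *Ccl22* was the one member that shared the third library as its highest. With a single set of 3 pooled libraries this is a description, and no test was made.

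**Figure D4:**
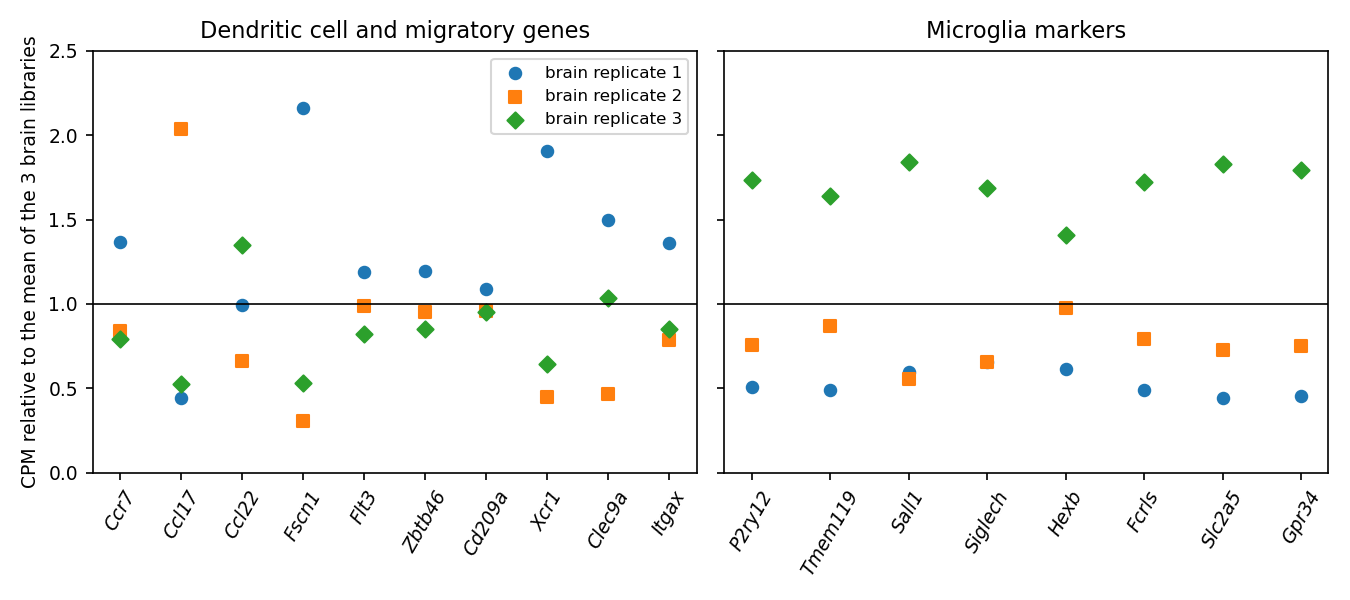
Level of each gene in the 3 brain libraries relative to their mean, for the 10 genes (left) and for 8 microglia markers (right). The first library is highest for 8 of the 10 genes, and the third library is highest for all 8 microglia markers.

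Genes with the most similar profile over the 9 libraries were sought among 11607 protein-coding genes, by the root mean square difference of centred log2 CPM values. The closest to *Cd209a* was its family member *Cd209d* (0.35), and *Ccr7* was closest to *Sema4c* (0.43), *Myo1e* (0.48) and *H2-Oa* (0.49), the last a gene of antigen presentation in B and dendritic cells. *Ccl22* was closest to the microglia marker *Slc2a5* (0.44) and to *Ttr* (0.50), a choroid plexus gene, both of which also had 0 or 1 counts in each blood library. Within the brain the orders differed, with counts of 761, 595 and 1156 for *Ccl22*, 395, 763 and 1833 for *Slc2a5*, and 1760, 334 and 944 for *Ttr*. *Flt3* was closest to *Tubb6* (0.13), *Xcr1* to *Fosl2* (0.32), *Clec9a* to *Pkmyt1* (0.35) and *Ccl17* to *Cgnl1* (0.51). *Zbtb46* was followed by *Ctnnd2* (0.47), *Dnase1l3* (0.58) and *Serpine2* (0.63), and *Itgax* by *Angptl4* (0.22). *Fscn1* was closest to *Pdpn* (0.76). The median distance over all candidates differed between the genes, from 0.707 for *Flt3* to 4.02 for *Ccl22*, and was 2.86 for *Fscn1*. The distances therefore cannot rank how close the matches of different genes were. The values describe likeness over 9 libraries in 3 groups and are not tests.

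Stroke blood and sham blood compare circulating cells of the same gate after stroke and after sham surgery. None of the 6 genes with enough counts was called, where 0.0079% of the 12664 genes tested, 1 gene, was called. At an unadjusted p below 0.05 edgeR gave 1 of the 6, *Ccr7*, against 12.5% of all genes, and DESeq2 called 1.06% of the genes it tested. *Ccr7* was lower in stroke blood, with a log2 fold change of -2.04 (SE 0.43, edgeR adjusted p = 0.285) and no overlap between the groups, which held for 18.1% of all genes. It did pass with DESeq2 (adjusted p = 0.000150), without the filter on low counts (edgeR adjusted p = 0.000268) and without the first sham blood library (log2 fold change -2.40, edgeR adjusted p = 0.0155). B cell markers ran beside it, with a summed level of 130 to 242 CPM in sham blood and 66.1 to 116 CPM in stroke blood and a median log2 fold change of -1.59 over 6 genes (edgeR called 0 of 6, with 5 at an unadjusted p below 0.05, and DESeq2 called 4). The T and NK cell markers had a median of -1.30 over 8 genes (edgeR called 0 of 8, with 5 at an unadjusted p below 0.05, and DESeq2 called 4). The T cell genes *Cd3e* (-1.96), *Cd3d* (-1.74), *Cd3g* (-1.59), *Trac* (-1.55) and *Trbc2* (-1.05) had negative log2 fold changes, while those of the NK cell genes were 0.22 for *Nkg7*, 0.20 for *Ncr1* and 0.16 for *Klrb1c*. Their part in the *Ccr7* difference was not tested.

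The other genes differed less between the blood groups. *Cd209a* had a log2 fold change of -0.85 (SE 0.66), *Zbtb46* of -0.56 (SE 0.86), *Flt3* of -0.16 (SE 0.29), *Xcr1* of 0.33 (SE 0.53) and *Itgax* of 0.35 (SE 0.27), with edgeR adjusted p from 0.604 to 0.831. In this comparison even *Ccr7*, at -2.04 (SE 0.43), was not called (edgeR adjusted p = 0.285). A change of 1 on the log2 scale could thus have been missed for any of these genes, most of all at the standard errors of *Cd209a* and *Zbtb46*. *Ccl17*, *Ccl22*, *Fscn1* and *Clec9a* had too few counts to test in blood.

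Wider sets of dendritic cell genes, which hold none of the 10, were also compared. They too were chosen with earlier results of these data known. In each set with genes called higher than in stroke blood, some of these had fewer than 10 counts in at least 2 stroke blood libraries. Such genes, among them *Cacnb3*, *Cadm1*, *Kit* and *Siglech*, reached the test through the brain. Their calls, and the counts and medians of their sets, thus follow in part from the filter. Of a program of mature and migratory dendritic cells, 13 of 27 tested genes were higher in the brain than in stroke blood and 0 lower, where 13.1% of all genes tested were called higher and 21% in either direction, with a median log2 fold change of 1.70 against 0.06 over all genes. *Cd83*, which encodes a surface protein known from mature dendritic cells, had the largest change among the genes of this program with a mean log2 CPM above 3. It measured 1130 ± 717 CPM in the brain and 13.1 ± 3.83 CPM in stroke blood (SD, n = 3 each). The log2 fold change was 6.46 (SE 0.49, edgeR adjusted p = 3.83e-05). Its brain counts were 40150, 17812 and 15891, highest in the first library. The signalling gene *Traf1* (log2 fold change 2.48, SE 0.30), the checkpoint ligand gene *Cd274* (2.28, SE 0.31) and *Tbc1d4* (3.07, SE 0.31) rose as well. The 14 genes not called include *Cd40* (-0.03), *Birc3* (0.07), *Nfkb2* (0.33) and *Samsn1* (-0.27). Another of these, *Il15*, was lower in every brain library, by less than the fold threshold (-0.72, SE 0.22, edgeR adjusted p = 0.0321). *Cacnb3*, chosen after its values were seen, resembled *Ccl22*, with 2 counts in the 6 blood libraries together, and 288, 200 and 319 in the brain. Against sham blood 14 of 27 were higher and 0 lower, where 9.75% of all genes were called higher and 13.4% in either direction.

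Of 21 tested genes of dendritic cells in general and of their precursors, 11 were higher in the brain than in stroke blood, 1, *Bcl11a*, was lower (-1.07), and 9 were not called (median 1.42). Over all genes tested, 13.1% were called higher and 21% in either direction. The higher ones include the MHC class II genes *H2-Ab1* (9469 ± 1305 against 1415 ± 484 CPM), *H2-Eb1* (2027 ± 167 against 321 ± 114 CPM) and *H2-Aa* (3371 ± 361 against 675 ± 218 CPM; SD, n = 3 each), which macrophages and B cells also use. *Kit*, a receptor of progenitor and mast cells (log2 fold change 5.51, SE 0.83), *Dpp4* (1.46, SE 0.28) and *Spib* (1.46, SE 0.38) were higher too. *Spib* was higher only against stroke blood, with 10.3 CPM in the brain, 3.87 CPM in stroke blood and 13.2 CPM in sham blood. Its log2 fold change against sham blood was -0.36 (SE 0.33). Against sham blood 8 of 21 were higher and 1 lower (median 0.64), where 9.75% of all genes were called higher and 13.4% in either direction.

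Subset genes were mixed. Over all genes tested, 13.1% were called higher in the brain than in stroke blood and 21% in either direction. Of 14 tested genes of type 1 conventional dendritic cells 5 were higher in the brain and 1 lower (median 1.00), with the adhesion gene *Cadm1* at 17.8 CPM in the brain and 1 count in all stroke blood libraries together, *Cd36* higher (log2 fold change 1.83, SE 0.29) and *Naaa* lower (-1.03, SE 0.14). *Irf8* and *Batf3*, the transcription factor genes of this subset, were not called. *Irf8* had a log2 fold change of 0.08 (SE 0.17). *Batf3* was lower in every brain library than in stroke blood, by less than the fold threshold (-0.83, SE 0.22, edgeR adjusted p = 0.0181). Against sham blood *Batf3* had 0.18 (SE 0.27). Of 16 genes of type 2 and monocyte-derived dendritic cells 4 were higher and 3 lower (median 0.13), with *Mgl2*, a lectin gene, up by 3.68 (SE 0.47) and *Cd7* by 3.06 (SE 0.29), and *Irf4* (-1.45, SE 0.26) and *Clec4a2* (-1.17, SE 0.16) down on the log2 scale. Of 13 genes of plasmacytoid dendritic cells 6 were higher and 0 lower (median 1.28). The most changed of these, *Siglech*, is also a microglia gene and had 0 counts in stroke blood and 93.2 ± 55.7 CPM in the brain, and *Blnk* (3.71, SE 0.42) and *Lair1* (1.16, SE 0.20) rose as well. The 7 not called include *Tcf4* (0.10), *Irf7* (-0.23), *Bst2* (-0.06) and *Ly6d* (0.21). Against sham blood 4 of the 13 were higher and 1, *Ly6d*, was lower (-1.68, SE 0.37, edgeR adjusted p = 0.0192). Of all genes, 9.75% were called higher than in sham blood and 13.4% in either direction.

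The set of receptors and ligands listed for the 10 genes was mostly not called. Of the 8 tested genes of this set, 0 were higher than in stroke blood and 1, *Icam2*, was lower (-1.01, SE 0.20). The median of the 8 was -0.24. Among them was *Itgb2*, the integrin chain that pairs with CD11b and CD11c. The set also holds *Itgam*, *Itgal* and *Csf1r*, which are not receptors or ligands of the 10 themselves. *Ccl19* and *Ccl21a*, which encode ligands of CCR7, had 0 counts in all 9 libraries. Among family relatives of the 10 genes 5 of 12 tested were higher and 3 lower (median 1.57), the lower ones being *Clec1b*, *Clec12a* (-1.10, SE 0.16) and *Zbtb7b* (-1.96, SE 0.30). Of the 5 higher, *Cd209c*, *Cd209e*, *Cd209f* and *Cx3cl1* had fewer than 10 counts in every stroke blood library and reached the test through the brain. Over all genes tested, 13.1% were called higher than in stroke blood and 21% in either direction. Between stroke and sham blood edgeR called 0 of the 92 tested genes of these sets, of which 22 had an unadjusted p below 0.05, against 12.5% of all genes, and DESeq2 called 5, against 1.06%.

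**Figure D5:**
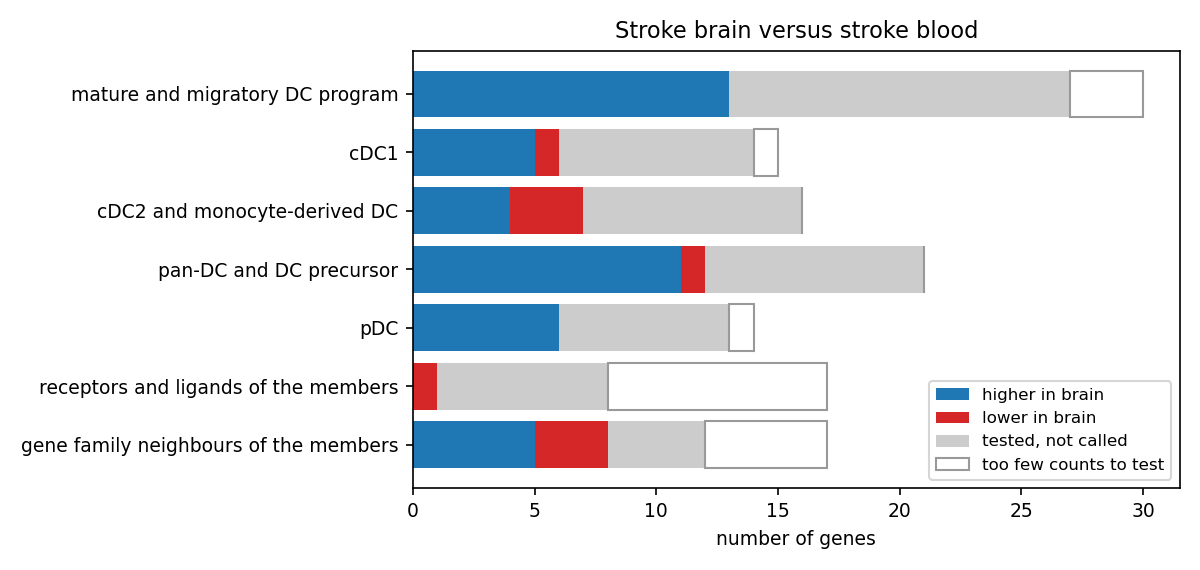
Number of genes in each set that were higher in the brain, lower in the brain, not called, or had too few counts to test, for stroke brain against stroke blood. The set of mature and migratory dendritic cells holds 13 higher, 0 lower and 14 genes not called, the general dendritic cell set 11, 1 and 9, the family relatives 5, 3 and 4, and the receptors and ligands 0, 1 and 7. Over all genes tested, 13.1% were called higher and 21% in either direction.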

How the data were processed

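RNA of sorted monocytes/macrophages was sequenced from 3 sham blood, 3 stroke blood and 3 stroke brain libraries, grouped by their labels. The authors made cDNA with the SMART-Seq HT kit, sequenced paired-end reads, aligned these to GRCm38 using HISAT2, and used HTSeq to count reads on genes. The deposited files hold raw counts that were not normalized. Versions, annotation release and strand setting are not given in the sources used here, so reads of a gene and an antisense gene over its exons (*Cd274*, *Cd7*, *H2-Oa*) cannot be told apart. Without molecular identifiers, limits from counts cover counting error only.

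Symbols, coordinates and exon lengths came from GENCODE M21, where 53706 of the 53801 identifiers were found. Each comparison was fitted with edgeR 4.0.16 under R 4.3.3 by its quasi-likelihood test, after its default filter on low counts and TMM scaling, on the libraries of its 2 groups, with Benjamini-Hochberg adjustment over all genes tested. The standard error is the log2 fold change over the square root of F. A lower bound sets 3 counts in each library of a group with no count; a group with 1 to 3 counts at most in a library gets the ratio of summed counts with an exact 95% interval. p-values reflect the spread between libraries, each of 1 mouse or of 5 pooled mice. Counts of replicates differed beyond sampling noise (a chi-square of 26.2 to 152 for each degree of freedom), so all were kept.

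The 10 genes and all gene lists were chosen with earlier results of these data known. Named list genes are, per list and comparison, up to 4 called genes with the largest change, separate groups and a log2 CPM that averaged above 3. Receptors, ligands and relatives were named by their counts. *Cacnb3*, *Irf8*, *Batf3*, *Bcl11a*, *Kit*, *Dpp4*, *Spib*, *Mmp8*, *Actb*, *Cxcr6* and the neighbours of *Ccl22* were named after values were seen. So were the T cell, NK cell and neural markers, *Tcf4*, *Irf7*, *Bst2*, *Ly6d*, *Cd40*, *Birc3*, *Nfkb2*, *Samsn1* and *Il15*. The fits were tested on simulated data. The alternatives were DESeq2 1.42.0, 2 other filters, 3 other scalings, all 9 libraries in a single fit, a replicate block, 2 other thresholds and each library left out. Figures were made with matplotlib 3.10.9.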

Additional observations from a re-analysis of the deposited data

How the results depend on the processing

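The number of the 10 genes called against stroke blood was 9 and lay between 7 and 9 under all alternatives, and against sham blood it was 6 and lay between 4 and 7. Between stroke and sham blood it was 0, and it was 1 (*Ccr7*) with DESeq2, 1 without a filter on low counts, and 0 to 1 with each library left out. Between the blood groups, 2 genes that were not called changed sign when a library was left out. *Flt3* ranged from -0.52 to 0.032 (without the third stroke blood library) and *Zbtb46* from -1.37 to 0.67 (without the second sham blood library). *Flt3* against stroke blood also fell below the fold threshold with RLE scaling (0.998), upper-quartile scaling (0.88) and all 9 libraries in a single fit (0.99). The cause was not tested. Replicate numbers were not treated as pairs. The sources used here do not state whether stroke blood and stroke brain libraries share mice. Correlations of same-numbered deviations lay between -0.0803 and 0.0705 over 12060 genes, which with so few libraries cannot exclude a pairing. With the replicate block 9, 0 and 6 of the 10 genes were called. Upper-quartile scaling moved the median log2 fold change of all genes against stroke blood from 0.06 to -0.09 and library size alone moved it to 0.22. Over all genes, 1 gene was called between the blood groups, and 127 with DESeq2, 160 without a filter, 16 without the first sham blood library, 2 without the third and 0 without any one of the other 4; 2771 against stroke blood became 1793 at an adjusted p below 0.01, and 1748 against sham blood became 792 at that threshold and 1146 without the third sham blood library. The gene sets stayed within 1.5 times of their counts in 306 of 336 alternatives; the others include 0 to 4 receptors and ligands against stroke blood, 9 mature genes against sham blood at an adjusted p below 0.01, and 3 general dendritic cell genes between the blood groups with DESeq2. Depth limits *Ccl17*, *Xcr1* and *Clec9a*, which rest on few counts.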
